A study of Mus musculus with 4 samples.

Results

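The collagen genes of the mouse prostate were followed across cell classes. Every gene in the deposited matrix whose symbol reads Col, a number, the letter a and a number was taken, which gave 44 of the 30905 genes. Of these, 42 had at least 20 UMIs (unique molecular identifiers, each standing for 1 captured RNA molecule) over all kept cells, Col9a1 and Col19a1 had 19 and 11, and none had 0. Dissociated prostates of 4 groups of mice were profiled by droplet 3' single-cell RNA sequencing, with 1 library per group. The Trp53-intact library came from mice 4 months old, the Trp53-intact ADT library from mice 5.5 months old, the Trp53-deleted library from mice 3.5 months old and the Trp53-deleted ADT library from mice 5.5 months old. Trp53 encodes the tumour suppressor p53. The labels mark its deletion with the letters PC, read here as restricted to the prostate, and do not name what drives the recombination. ADT is read as androgen deprivation therapy, which removes the hormone that prostate epithelium depends on. Values below are given in that order of libraries. The labels give neither the number of mice behind a library nor any replicate, so the effects of ADT, of age and of the single library cannot be told apart, and the same holds for genotype. No test between groups was possible: every interval below is an exact 95% interval that covers counting error only.

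The 4 libraries held 7806 to 10595 barcodes and 5389 to 8833 kept cells, with a median of 4124.5 to 5660 UMIs per kept cell. Of 28901 barcode sequences among kept cells, 97 occurred in more than 1 library. Collagen genes took 2391, 1391, 3421 and 9016 CPM of all kept cells (CPM, UMIs of a gene scaled to an equal total per class and library). The Trp53-deleted ADT library stood apart, because 1 cluster of very deep cells supplied most of its collagen RNA. The targeted gene was read first as a check of the labels. Trp53 was at 57.1, 91.3, 17.2 and 19.99 CPM in luminal progenitor-like cells and at 45.6, 69.0, 46.5 and 44.96 CPM in fibroblast-like cells, so both deleted libraries were below both others in the epithelial class. In the stromal class the libraries without ADT were about level and, with ADT, the deleted library was the lower. The labels do not name the deleted exons, and a tag read outside them would not show the deletion.

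Collagens are proteins of the extracellular matrix built from 3 chains wound into a triple helix. Fibrillar collagens (types I, II, III, V, XI, XXIV and XXVII) make the tensile fibres of connective tissue, type IV makes the sheet of every basement membrane, and type VI makes beaded filaments around cells. FACIT collagens sit on the surface of fibrils, type VII anchors the epidermal and glandular basement membrane to the stroma, and the transmembrane collagens, such as type XVII of the hemidesmosome, hold cells to it. In the prostate the stroma around the glands, with fibroblasts and smooth muscle, is the usual source of fibrillar collagen.

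Several collagen genes lie in pairs, and their start regions are shown because the paired and the lone members are followed side by side below. In the GENCODE M21 annotation of GRCm38, Col4a1 and Col4a2 lie head to head on chromosome 8 with 21 bases between their starts. Col4a3 and Col4a4 lie head to head on chromosome 1 with 72 bases between their starts, and Col4a5 and Col4a6 on chromosome X with 1309. RefSeq promoters (250 bases before to 50 after the start, GRCm38.p6) were matched for 35 of the 44 genes. Shown 5' to 3' on the gene's strand are Col4a1 (chr8:11312777-11313076, minus strand) and Col4a2 (chr8:11312555-11312854, plus strand), whose windows share 78 bases. They are followed by Col1a2 (chr6:4505368-4505667, plus strand) and Col3a1 (chr1:45311288-45311587, plus strand), the collagen genes with the highest CPM in fibroblast-like cells. The last is Col17a1 (chr19:47691993-47692292, minus strand), the collagen of basal cells. Capitals mark 3 motifs on either strand: the CCAAT box, the GC box written GGGCGG, and the TATA box written TATAAA.

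Col4a1: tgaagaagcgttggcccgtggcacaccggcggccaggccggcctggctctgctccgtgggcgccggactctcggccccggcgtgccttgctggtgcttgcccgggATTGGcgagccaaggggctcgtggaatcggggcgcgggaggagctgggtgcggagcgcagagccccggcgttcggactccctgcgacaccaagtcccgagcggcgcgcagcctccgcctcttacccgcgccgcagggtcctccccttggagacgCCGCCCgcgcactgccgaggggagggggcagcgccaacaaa
Col4a2: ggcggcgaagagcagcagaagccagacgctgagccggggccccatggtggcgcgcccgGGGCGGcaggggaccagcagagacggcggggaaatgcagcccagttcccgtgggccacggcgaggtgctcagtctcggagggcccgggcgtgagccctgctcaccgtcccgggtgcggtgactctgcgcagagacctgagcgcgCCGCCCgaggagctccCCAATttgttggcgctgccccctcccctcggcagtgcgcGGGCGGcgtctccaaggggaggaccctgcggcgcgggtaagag
Col1a2: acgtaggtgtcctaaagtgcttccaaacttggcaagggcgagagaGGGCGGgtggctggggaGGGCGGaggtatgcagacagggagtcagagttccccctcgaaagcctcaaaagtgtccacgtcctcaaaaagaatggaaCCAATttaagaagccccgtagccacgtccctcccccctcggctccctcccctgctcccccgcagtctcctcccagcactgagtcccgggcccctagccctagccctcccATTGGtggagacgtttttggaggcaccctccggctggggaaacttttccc
Col3a1: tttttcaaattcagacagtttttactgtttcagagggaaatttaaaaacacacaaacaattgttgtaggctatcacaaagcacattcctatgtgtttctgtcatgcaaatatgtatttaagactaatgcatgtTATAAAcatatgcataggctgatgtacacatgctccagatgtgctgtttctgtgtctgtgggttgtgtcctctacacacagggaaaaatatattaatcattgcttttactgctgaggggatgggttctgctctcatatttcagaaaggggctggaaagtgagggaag
Col17a1: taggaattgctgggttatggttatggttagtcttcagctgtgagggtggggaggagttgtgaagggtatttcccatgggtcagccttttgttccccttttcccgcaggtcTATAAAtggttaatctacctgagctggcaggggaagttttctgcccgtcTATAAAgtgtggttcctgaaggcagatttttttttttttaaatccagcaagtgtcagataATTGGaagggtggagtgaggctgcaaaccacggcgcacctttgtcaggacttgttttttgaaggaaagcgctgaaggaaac

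The Col4a1 and Col4a2 windows were rich in G and C (74.0% and 73.7%) and held no TATAAA, whereas those of Col3a1 (37.7%) and Col17a1 (46.3%) held it 1 and 2 times. Among collagen promoters 60.5% (23 of 38) held GGGCGG, against 35.7% of all 32851 promoters. CCAAT was held by 34.2% against 37.4%, and TATAAA by 13.2% against 13.6%. Such a match describes the letters and is not a shown binding site.

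Collagen RNA was concentrated in stromal cells. Cells were clustered without the collagen genes and named from marker lists, so that "fibroblast-like" means a cluster that holds fibroblast markers such as Pdgfra, Dcn and Lum. The 1088, 1262, 1607 and 764 fibroblast-like cells had summed collagen levels of 17031, 5327, 12182 and 16888 CPM. They were 14.5%, 17.3%, 29.8% and 8.65% of kept cells and supplied 80.3%, 84.7%, 92.1% and 10.3% of all collagen UMIs. In the Trp53-deleted ADT library 81.1% of collagen UMIs came instead from 625 Cdkn2a-high mesenchymal cells, 7.08% of its cells, at 15954 CPM. Mesothelial-like cells followed with 10777 and 3216 CPM in the Trp53-intact libraries without and with ADT, and smooth muscle and pericyte-like cells with 6601 and 4782 CPM. The mesothelial-like cells were shallow, at a median of 1045 and 1069 UMIs per cell. Their value with ADT rests on 514 collagen UMIs.

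**Figure D1:**
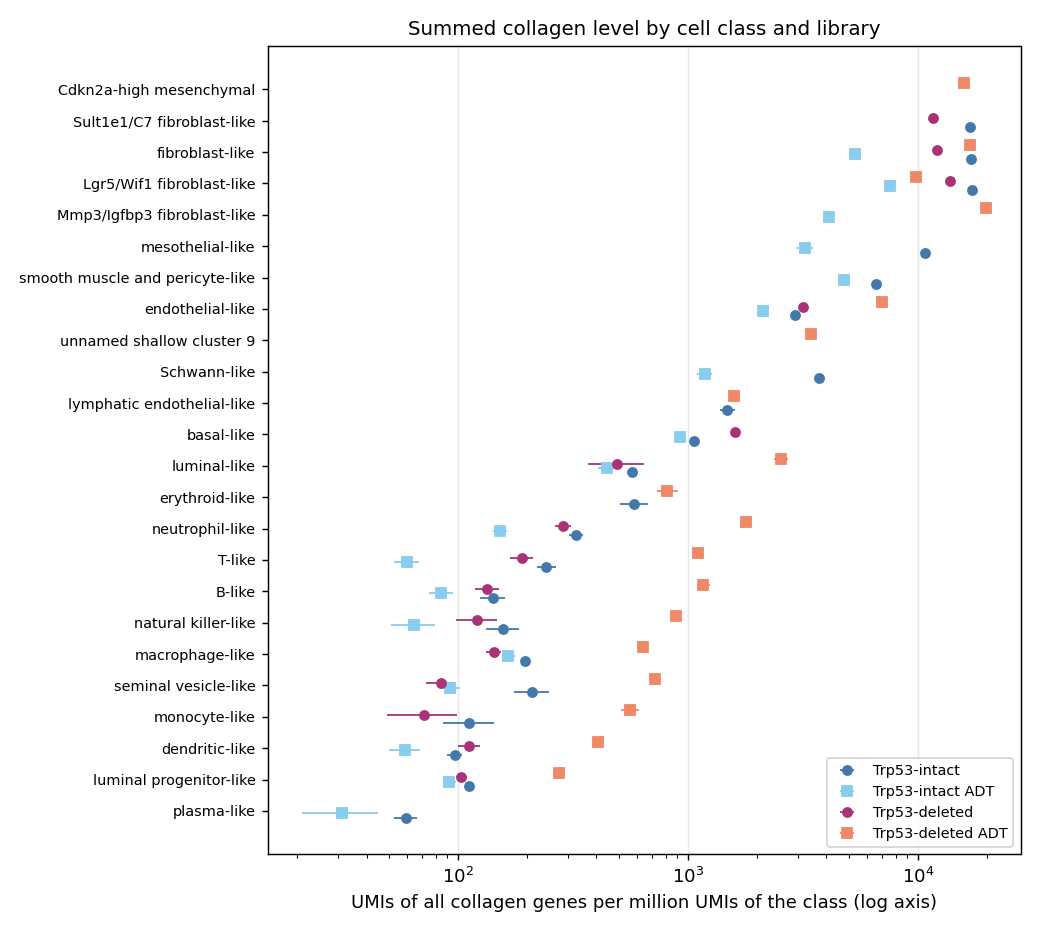
Summed level of all collagen genes in each cell class (log axis, CPM), 1 point per library with at least 50 cells of the class and bars for the exact 95% counting interval. Stromal classes sit at the top, and the Trp53-deleted ADT library (orange squares) lies to the right of the other libraries in neutrophil-, T-, B- and macrophage-like cells.

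Collagen RNA was also counted in blood cells, and their level is given as the background. It is a CPM level and was not adjusted for depth, so it need not be the background of classes with deeper cells. Neutrophil-like cells, blood cells not known to make fibrillar collagen, held 326, 152, 287 and 1794 CPM of collagen RNA, at a median of 3209.5, 3536, 2632 and 2608 UMIs per cell. B-like cells held 142, 84.5, 134 and 1169 CPM. The level in the Trp53-deleted ADT library was above that of the other libraries in both classes. In its neutrophil-like cells Col1a1, Col1a2 and Col3a1 stood at 526, 405 and 286 CPM. The same genes stood at 5435, 4470 and 2241 CPM in Cdkn2a-high cells and at 2859, 3825 and 5933 CPM in fibroblast-like cells of that library. In fibroblast-like cells 29 of 30, 30 of 31, 29 of 30 and 29 of 30 members with at least 20 UMIs were over 2-fold above the neutrophil-like level of their library.

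Each collagen type had its own pattern over classes. Of the 42 members with at least 20 UMIs, 11 had their highest mean level in Cdkn2a-high mesenchymal cells, 7 in fibroblast-like cells, 6 in Schwann-like cells, and 4 each in basal-like, endothelial-like and smooth muscle and pericyte-like cells. These means cover the libraries with 50 cells of a class, 1 for Cdkn2a-high, 2 for smooth muscle and pericyte-like and 4 for fibroblast-like cells, so they are not over the same libraries. Col10a1, for example, had its highest mean in smooth muscle and pericyte-like cells but was highest in fibroblast-like cells within each of the 4 libraries. The Cdkn2a-high class took the fibrillar Col1a1, Col1a2, Col5a1, Col5a2, Col11a1, Col24a1 and Col27a1, and also Col6a1, Col6a3, Col8a1 and Col22a1. The fibroblast-like class took Col3a1, Col14a1, Col4a5, Col6a2, Col6a5, Col6a6 and Col8a2. Of the type IV chains, Col4a1 and Col4a2 were highest in endothelial-like cells, Col4a5 in fibroblast-like cells and Col4a6 in basal-like cells. Levels of different genes are not ranked against each other here. A 3' count gives 1 UMI per captured molecule whatever its length, but capture may differ between genes.

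**Figure D2:**
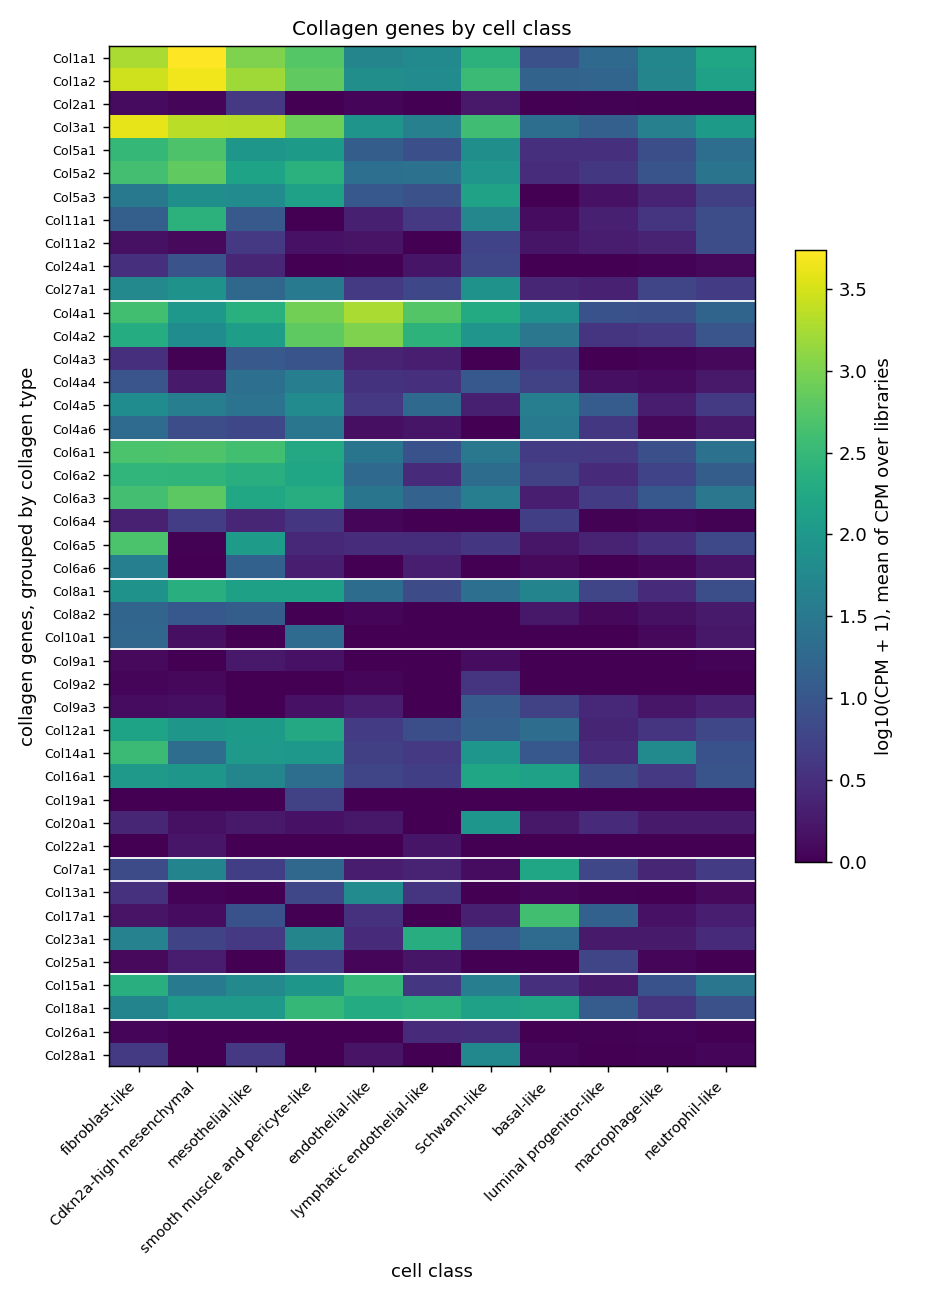
The 44 collagen genes (rows, grouped by collagen type between white lines) in 11 cell classes (columns), as log10 of CPM + 1 of the mean CPM over the libraries with at least 50 cells of the class. Col1a1, Col1a2 and Col3a1 are brightest in fibroblast-like, Cdkn2a-high and mesothelial-like cells, Col4a1 and Col4a2 in endothelial-like cells, and Col17a1 in basal-like cells.

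The major fibrillar chains in fibroblast-like cells were lowest in the Trp53-intact ADT library. Col1a1, a chain of type I collagen, was at 2304, 679, 1415 and 2859 CPM. Its partner chain Col1a2 was at 3854, 1238, 2689 and 3825 CPM. Col3a1, the chain of type III collagen that mixes with type I in soft tissue, was at 5434, 1265, 2966 and 5933 CPM. For these 3 genes the order was the same at its low end: Trp53-intact ADT below Trp53-deleted below both other libraries. Col5a1 (402, 144, 322 and 363 CPM) and Col5a2 (533, 176, 365 and 576 CPM) encode type V collagen, which starts and limits fibrils, and were also lowest in that library. The minor fibrillar chain Col11a1 was low in fibroblast-like cells (22.4, 6.35, 4.10 and 16.3 CPM), and Col27a1 varied little (51.1, 51.7, 48.0 and 71.0 CPM).

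The basement membrane chains in the same cells split by gene pair. Col4a1 (500, 237, 405 and 458 CPM) and Col4a2 (262, 138, 154 and 250 CPM) were lowest with ADT in Trp53-intact cells. Col4a5 was at 91.3, 18.01, 120 and 33.0 CPM and Col4a6 at 16.8, 6.43, 37.3 and 15.03 CPM, so both were lower with ADT in both genotypes. Col4a1 carried 1.91, 1.72, 2.62 and 1.83 UMIs per UMI of Col4a2 in fibroblast-like cells and 1.56, 1.67, 1.85 and 1.95 in endothelial-like cells. Col4a5 carried 5.43, 2.80, 3.21 and 2.19 UMIs per UMI of Col4a6 in fibroblast-like cells, against 0.91, 1.27 and 1.25 in basal-like cells of the 3 libraries that had 50 of them. Within the stroma this balance varied by subset. It was 3.08, 1.45, 1.81 and 1.46 in the Lgr5/Wif1 subset described below, and 1.27 (0.61 to 2.68) in smooth muscle and pericyte-like cells of the Trp53-intact ADT library, so the stromal values reached the basal ones. Col4a1 carried 2.08, 3.03 and 2.60 UMIs per UMI of Col4a2 in basal-like cells.

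Type VI collagen showed the largest range. Its common chains Col6a1 (583, 225, 565 and 499 CPM), Col6a2 (439, 147, 309 and 248 CPM) and Col6a3 (698, 173, 413 and 359 CPM) were lowest in the Trp53-intact ADT library. Col6a5, an alternative chain that can take the place of the third, was at 633, 21.2, 1249 and 7.81 CPM. Col6a6, another alternative chain beside it on chromosome 9, was at 38.5, 5.40, 116 and 1.73 CPM. These 2 alternative chains were lower in both ADT libraries than in both others, and so were Col6a1, Col6a2, Col6a3 and, above, Col4a5 and Col4a6. The share of all genes that parted this way was not counted. Col6a4 stayed at 0.72 to 1.45 CPM.

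The other types varied gene by gene. Col8a1, a chain of the hexagonal network type VIII collagen of vessel walls, was at 93.4, 52.4, 20.2 and 149 CPM, and Col12a1, a FACIT collagen of dense connective tissue, at 195, 158, 26.4 and 196 CPM. Both were lowest in the Trp53-deleted library without ADT. Col14a1, another FACIT collagen, varied least among the members above 100 CPM at 309, 317, 372 and 400 CPM. Col15a1, a multiplexin next to basement membranes, was at 276, 92.4, 237 and 306 CPM, and Col16a1 at 113, 62.2, 96.6 and 126 CPM. Col18a1, the source of the fragment endostatin, was at 41.7, 23.6, 79.0 and 46.3 CPM, and the transmembrane Col23a1 at 12.05, 30.2, 84.1 and 49.4 CPM. Col10a1, best known from growth plate cartilage, was at 47.6, 9.52, 4.42 and 3.90 CPM, high in 1 library only.

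**Figure D3:**
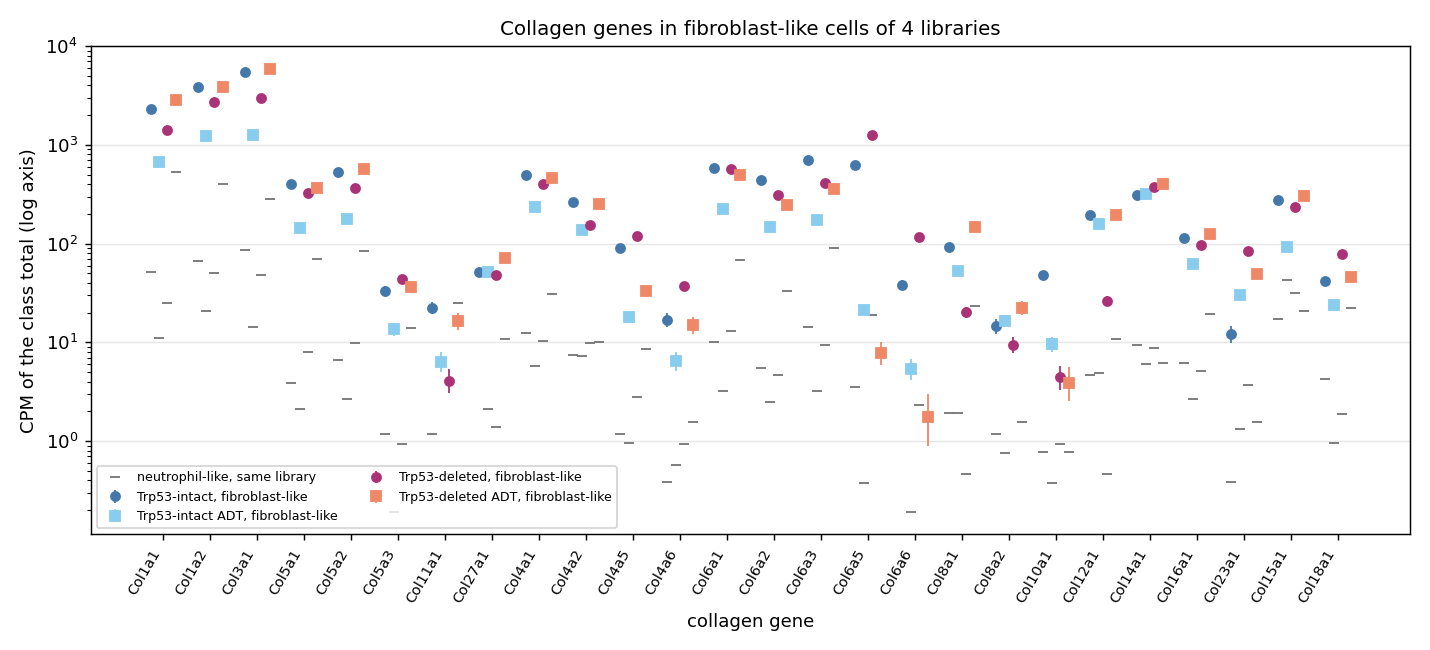
Collagen genes that reached 20 CPM in fibroblast-like cells of any library (log axis), with exact 95% counting intervals, and the level in neutrophil-like cells of the same library as grey dashes (levels of 0 are not drawn). Most genes are lowest in the Trp53-intact ADT library (light blue squares), and Col6a5 and Col6a6 are low in both ADT libraries.

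The fibroblast-like class did not hold the same cells in each library. Its Sult1e1/C7 subset had 947, 35, 1349 and 14 cells, its Mmp3/Igfbp3 subset 46, 986, 37 and 444, and its Lgr5/Wif1 subset 95, 241, 221 and 306. The first was thus nearly absent with ADT and the second scarce without it, and the third alone passed 50 cells in all 4 libraries. Col6a5 stood at 747 and 1504 CPM in the Sult1e1/C7 subset of the Trp53-intact and Trp53-deleted libraries. It stood at 25.2 and 8.18 CPM in the Mmp3/Igfbp3 subset of the 2 ADT libraries. In the Lgr5/Wif1 subset it had 4, 2, 22 and 1 UMIs. Col6a6 had 0, 0, 3 and 0 UMIs there. The low Col6a5 and Col6a6 of the ADT libraries went with a scarce Sult1e1/C7 subset. A difference within that subset could not be read with 35 and 14 cells at this clustering. At a finer clustering, given below, the subset held 81 Trp53-intact ADT cells. Both genes were lower in these than in its Trp53-intact cells without ADT. How much the scarce subset and the lower level within it each contributed was not tested.

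In Trp53-intact mice, fibroblast-like cells had less collagen RNA in the ADT library than in the library without ADT. The summed level was 0.313 times as high (0.310 to 0.316). A member was counted as higher or lower when the log2 ratio of CPM + 5 was at least 1 in size, by size alone. Of 34 members with at least 20 UMIs over both libraries, 17 were lower and 1 was higher, against 2.04% of 13107 genes lower and 1.39% higher. The median log2 ratio was -1.01 for the members and 0.07 for all genes. Col6a5 lay farthest from equality at 0.0335 (0.0295 to 0.0379), and Col3a1 was at 0.233 (0.229 to 0.237). Col4a5 was at 0.197 (0.170 to 0.229), Col6a3 at 0.247 (0.236 to 0.260) and Col1a1 at 0.295 (0.287 to 0.302). The 17 lower members covered the fibrillar (Col1a1, Col1a2, Col3a1, Col5a1, Col5a2, Col5a3, Col11a1), basement membrane (Col4a1, Col4a4, Col4a5) and type VI chains (Col6a1, Col6a2, Col6a3, Col6a5, Col6a6), with Col10a1 and Col15a1. Col23a1 was the 1 higher member at 2.50 (2.01 to 3.13), a log2 ratio of 1.04 that came to 0.98 with median-of-ratios scaling and to 0.78 with doublets kept, and Col14a1 stood at 1.02 (0.975 to 1.08).

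In Trp53-deleted mice the same contrast had no common direction. The summed level was 1.39 times as high with ADT (1.38 to 1.40). Of 34 members 4 were higher and 4 lower, against 2.65% of 13296 genes higher and 3.25% lower, with a median log2 ratio of 0.17 for the members and -0.06 for all genes. Higher were Col12a1 at 7.42 (6.57 to 8.39), Col8a1 at 7.39 (6.43 to 8.52), Col11a1 at 3.99 (2.84 to 5.66) and Col1a1 at 2.02 (1.98 to 2.06). Lower were Col6a5 at 0.00625 (0.00469 to 0.00816), Col6a6 at 0.0149 (0.00769 to 0.0261), Col4a5 at 0.275 (0.238 to 0.317) and Col4a6 at 0.403. Col3a1, with a log2 ratio of 0.999, lay just short of the limit. As a mean over cells in place of summed UMIs, Col1a1 had a log2 ratio of 0.37 in place of 1.01. The neutrophil-like level differed most in this library. With it subtracted, Col1a1 had a log2 ratio of 0.74 in place of 1.01, and Col11a1 one of -0.79 in place of 1.23. Col11a1 stood at 24.8 CPM in neutrophil-like cells and at 16.3 CPM in fibroblast-like cells there. The subtraction was of CPM and took no account of depth, a median of 2608 UMIs per neutrophil-like and 7174 per fibroblast-like cell. The change of sign therefore does not settle the direction of Col11a1.

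The genotypes were compared with the same libraries, so these ratios are not independent of the ones above. Without ADT, Trp53-deleted fibroblast-like cells had 0.715 times (0.710 to 0.720) the summed collagen level of Trp53-intact ones. Of 33 members 2 were higher and 4 lower, against 1.64% and 1.66% of 13264 genes. The median log2 ratio was -0.22 for the members and 0.15 for all genes, so the members lay lower still relative to the shift of all genes. Higher were Col23a1 at 6.98 (5.71 to 8.61) and Col6a6 at 3.02 (2.68 to 3.41), and Col6a5 at 1.97 (1.91 to 2.04) lay just short of the limit. Lower were Col10a1 at 0.0928 (0.0687 to 0.123), Col12a1 at 0.136 (0.120 to 0.153), Col11a1 at 0.183 (0.132 to 0.250) and Col8a1 at 0.216 (0.187 to 0.249). The Sult1e1/C7 subset made up 947 of the Trp53-intact and 1349 of the Trp53-deleted cells. Within it Col23a1 was at 1.39 (0.890 to 2.23), with 31 and 60 UMIs, and Col10a1 had 0 and 2 UMIs. Col6a6, Col12a1, Col11a1 and Col8a1 were past 2-fold there in the same directions as in the whole class. The smooth muscle and pericyte markers summed to 623 CPM in Trp53-intact and 186 CPM in Trp53-deleted fibroblast-like cells, and their part in these ratios was not tested.

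With ADT, Trp53-deleted fibroblast-like cells had 3.17 times (3.14 to 3.20) the summed collagen level of Trp53-intact ones. Of 33 members 10 were higher and 1 lower, against 2.11% and 1.9% of 13071 genes, with a median log2 ratio of 0.81 against 0.02 for all genes. The 10 were Col1a1, Col1a2, Col3a1, Col5a1, Col5a2, Col5a3, Col6a1, Col6a3, Col8a1 and Col15a1, with Col3a1 at 4.69 (4.61 to 4.78) and Col1a1 at 4.21 (4.11 to 4.32). The lower member was Col6a5 at 0.368 (0.270 to 0.495). The neutrophil-like collagen level was 1794 CPM in the first library and 152 CPM in the second.

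**Figure D4:**
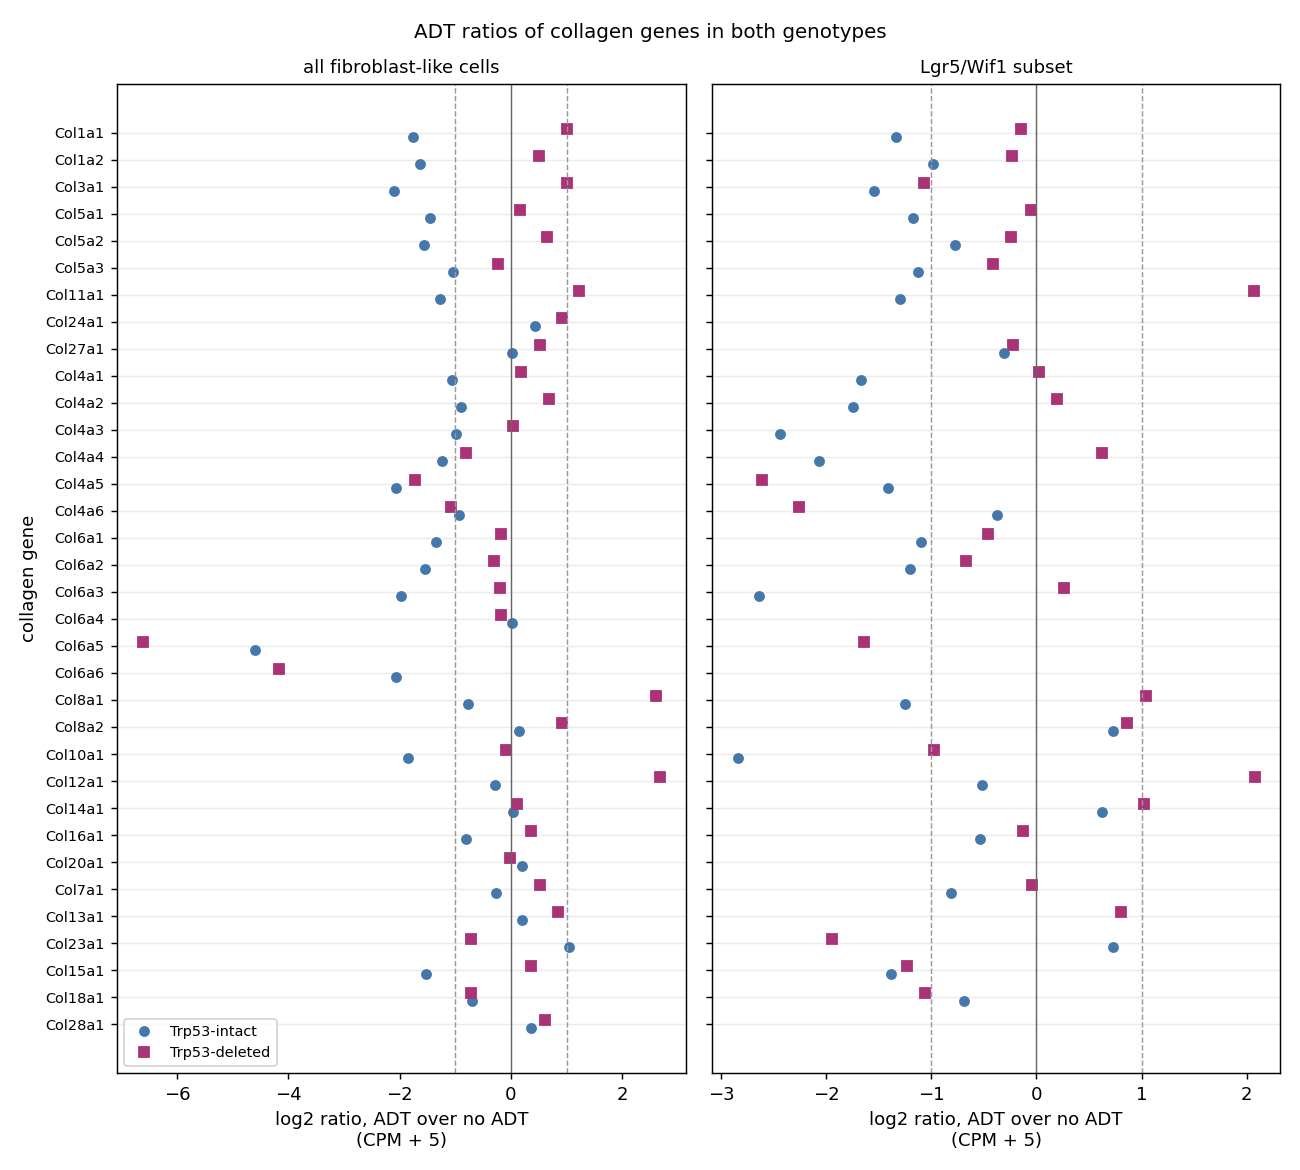
Log2 ratio of ADT over no ADT (CPM + 5) of each collagen gene with at least 20 UMIs over both libraries, in all fibroblast-like cells (left) and the Lgr5/Wif1 subset alone (right), Trp53-intact as blue circles and Trp53-deleted as purple squares, with dashed lines at 2-fold. In Trp53-intact mice most points lie below 0 in both panels, whereas in Trp53-deleted mice Col1a1 is at 1.01 on the left and -0.14 on the right.

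The Lgr5/Wif1 subset had 50 cells in all 4 libraries at this clustering and was followed through them, a choice made after seeing the data. Its summed collagen level was 17240, 7557, 13787 and 9822 CPM, so both ADT libraries were below both others. At a finer clustering the subset had 38, 181, 217 and 292 cells and 11743, 2807, 13634 and 6906 CPM, so both ADT libraries were again the lower, but the order of the 2 without ADT turned and 1 of them was under 50 cells. A separate Mfap4/Cxcl14 subset appeared there with 61, 119, 16 and 320 cells, at 20827, 12447 and 23348 CPM in the 3 libraries with 50 or more. The values of the Lgr5/Wif1 subset therefore depend on the clustering. In Trp53-intact mice 16 of 27 members were lower with ADT and 0 higher, against 3.57% and 5.22% of 10161 genes. The count of 0 is by size alone, as no test was run. In Trp53-deleted mice 4 of 28 were higher and 7 lower, against 4.24% and 6.25% of 10763 genes. Col3a1 was at 3037, 1035, 3695 and 1761 CPM and Col15a1 at 832, 315, 945 and 400 CPM, lower with ADT in both genotypes. Col1a1 was at 2963, 1174, 1982 and 1793 CPM, so the higher Col1a1 with ADT in Trp53-deleted fibroblast-like cells as a whole was not present in this subset. Col12a1 (979, 681, 85.6 and 377 CPM), Col8a1 (563, 234, 76.9 and 164 CPM) and Col11a1 (68.1, 24.8, 3.82 and 32.1 CPM) were lowest in the Trp53-deleted library. At the finer clustering Col12a1 was at 58.2, 61.8 and 87.5 CPM in the last 3 libraries, so that low was not present there.

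In the same subset the Trp53-deleted library without ADT was highest for Col23a1 and the X-linked type IV chains. Col23a1 was at 65.4, 112, 534 and 135 CPM, Col4a5 at 110, 38.4, 402 and 61.9 CPM, and Col4a6 at 35.8, 26.4, 222 and 42.5 CPM. Col18a1 (73.5, 43.6, 191 and 89.1 CPM) was highest there too. Against Trp53-intact without ADT, 4 of 29 members were higher and 10 lower, against 11.8% and 5.82% of 10034 genes. The share of higher members was thus close to that of all genes. With ADT, 3 of 27 were higher and 2 lower, against 1.79% and 2.32% of 10846 genes. The cells of this subset differed in other markers too. Smooth muscle and pericyte markers summed to 3216, 966, 316 and 1109 CPM and fibroblast markers to 11640, 18350, 39396 and 24991 CPM. Their part in the ratios was not tested.

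Within the other subsets only the genotypes could be compared at the main clustering. In the Sult1e1/C7 subset without ADT (947 and 1349 cells) the summed level was 16886 CPM in Trp53-intact and 11688 CPM in Trp53-deleted cells, with 2 of 31 members higher in the latter and 4 lower, against 1.38% and 1.58% of 12719 genes. The 2 were Col6a6 (140 against 44.9 CPM) and Col6a5 (1504 against 747 CPM), and the 4 were Col3a1, Col8a1, Col11a1 and Col12a1. In the Mmp3/Igfbp3 subset with ADT (986 and 444 cells) the summed level was 4125 CPM in Trp53-intact and 19732 CPM in Trp53-deleted cells. There 15 of 30 members were higher and 1 lower, against 3.46% and 2.6% of 12206 genes. Col3a1 was at 7544.5 against 1109 CPM, Col1a1 at 3330 against 447 CPM and Col8a1 at 146 against 7.61 CPM. Markers of other cells were also higher in the Trp53-deleted cells of this subset, with macrophage markers at 297 against 102 CPM, erythroid at 144 against 20.5 CPM, Schwann at 90.0 against 34.2 CPM and smooth muscle and pericyte at 334 against 217 CPM, beside fibroblast markers at 29874 against 29752 CPM. Their part was not tested. At the finer clustering the Mmp3/Igfbp3 subset had 125 Trp53-deleted cells at 5696 CPM and 876 Trp53-intact cells at 3286 CPM, and the Mfap4/Cxcl14 subset had 23348 and 12447 CPM. The 4.78-fold gap (4.73 to 4.84) between the genotypes in the Mmp3/Igfbp3 subset was therefore smaller at that clustering. There the Sult1e1/C7 subset also held 81 Trp53-intact ADT cells, at 10547 CPM against 16722 CPM in 969 cells without ADT. In them Col6a5 was at 51.2 CPM (39.9 to 64.9) against 742 CPM (723 to 762), and Col6a6 at 14.9 CPM (9.07 to 22.9) against 45.1 CPM (40.4 to 50.2).

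The Cdkn2a-high mesenchymal cells were found almost wholly in the Trp53-deleted ADT library (625 cells, with 1 in the Trp53-deleted library). Cdkn2a encodes the cell cycle inhibitors p16 and p19ARF. It was at 1842 CPM in these cells and at 77.8 CPM in fibroblast-like cells of the library. The leading genes were Ptn, Crabp1, Postn, Cthrc1 and Cdkn2a, and the median depth was 84049 UMIs per cell. All 10 fibroblast markers were present, but they summed to 1742 CPM against 28308 CPM in fibroblast-like cells, and luminal progenitor markers summed to 14.2 CPM. Trp53 was at 20.05 CPM (18.9 to 21.2), against 44.96 CPM in fibroblast-like and 19.99 CPM in luminal progenitor-like cells of the same library. A second Cdkn2a-rich cluster of 1617 shallow cells in this library (972 CPM of Cdkn2a, a median of 1131 UMIs) was led by the osteoclast genes Acp5, Ctsk and Nfatc1. It was kept apart after these genes were seen, and held 3449 CPM of collagen RNA.

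Cdkn2a-high cells had another balance of collagens than fibroblast-like cells of the same library. They held more Col1a1 (5435 against 2859 CPM), Col11a1 (250 against 16.3 CPM), Col6a3 (623 against 359 CPM) and Col8a1 (215 against 149 CPM). Col7a1, the anchoring fibril chain, was at 47.8 against 9.40 CPM and Col18a1 at 101 against 46.3 CPM. They held less Col3a1 (2241 against 5933 CPM), Col4a1 (95.9 against 458 CPM), Col14a1 (20.3 against 400 CPM), Col15a1 (33.7 against 306 CPM) and Col12a1 (94.7 against 196 CPM). Col6a5 was at 0.05 CPM. Col1a1 carried 1.22 UMIs per UMI of Col1a2 in these cells, against 0.60, 0.55, 0.53 and 0.75 in fibroblast-like cells of the 4 libraries and 0.92 and 0.67 in smooth muscle and pericyte-like cells. No replicate of this class exists, so these are values of 1 library.

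Endothelial-like cells carried mainly basement membrane and multiplexin chains. The 142, 125, 111 and 239 cells held Col4a1 at 1405, 993, 1493 and 3465 CPM and Col4a2 at 902, 594, 809 and 1778 CPM. Col15a1 was at 247, 196, 372 and 401 CPM, Col18a1 at 71.7, 146, 99.2 and 471 CPM, and the transmembrane Col13a1 at 71.7, 63.9, 76.2 and 41.8 CPM. The Trp53-deleted ADT library was the highest for the first 4 of these genes and the lowest for Col13a1. In Trp53-deleted mice 8 of 17 members were higher with ADT and 0 lower, against 5.04% and 8.72% of 10365 genes. The median log2 ratio was 0.49, against -0.14 for all genes. Col18a1 was 4.74 times as high (3.82 to 5.96), Col4a1 2.32 times (2.19 to 2.46) and Col4a2 2.20 times (2.03 to 2.38). The other 5 were the fibrillar Col1a1, Col1a2, Col3a1, Col5a1 and Col5a2, which lay below the neutrophil-like level (Col1a1 at 147 against 526 CPM). Of the 17 members with 20 UMIs in this library, 5 were over 2-fold above that level.

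In Trp53-intact mice 4 of 13 members were lower with ADT in endothelial-like cells and 0 higher, against 1.91% and 1.66% of 8833 genes. These were Col1a2, Col3a1, Col6a1 and Col6a2, each under 100 UMIs per library. Col4a1 was at 0.707 times (0.657 to 0.762) and Col18a1 at 2.04 times (1.59 to 2.63), a log2 ratio of 0.98 that lay short of the limit. Trp53-deleted against Trp53-intact gave 2 of 13 higher and 0 lower without ADT, against 6.26% and 2.56% of 8899 genes, and the median of all genes was shifted by 0.25 there. With ADT it gave 12 of 17 higher and 0 lower, against 5.95% and 4.24% of 10308 genes. Of the 12, Col4a1, Col4a2, Col15a1 and Col18a1 were over 2-fold above the neutrophil-like level of the Trp53-deleted ADT library. The other 8 (Col1a1, Col1a2, Col3a1, Col5a1, Col5a2, Col5a3, Col6a1 and Col6a3) were not, and with that level subtracted Col5a1, Col5a2, Col6a1 and Col6a3 turned lower. Erythroid markers summed to 295, 32.4, 3789 and 41.3 CPM in this class, and their part was not tested.

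In the epithelium, Col17a1 marked basal cells. The 150, 114 and 82 basal-like cells of the 3 libraries that had 50 or more (Trp53-intact, Trp53-intact ADT and Trp53-deleted) held Col17a1 at 278, 371 and 545 CPM. Neutrophil-like cells of these libraries held 1.17, 1.33 and 1.87 CPM of it. Col7a1 was at 120, 61.2 and 286 CPM, Col16a1 at 158, 64.4 and 184 CPM, Col18a1 at 160, 104 and 191 CPM, and Col4a6 at 41.0, 22.1 and 41.1 CPM. Col17a1 was lowest in the Trp53-intact library without ADT, and the other 4 genes were lowest with ADT. Basal-like cells held little of the fibrillar chains (49.1, 38.3 and 61.0 CPM) and of type VI (9.70, 13.7 and 17.6 CPM). Their summed level of all collagens was 1058, 926 and 1599 CPM. Luminal-like cells (1117, 948, 72 and 174 in the 4 libraries) held 572, 446, 492 and 2550 CPM. They were shallow, at a median of 1019, 772, 954 and 1288 UMIs per cell. In the Trp53-intact libraries without and with ADT, 7 of 16 and 6 of 6 members were over 2-fold above the neutrophil-like level. In the Trp53-deleted ADT library 0 of 7 were. These counts are of members with at least 20 UMIs.

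Luminal progenitor-like cells had low collagen RNA. The 486, 273, 320 and 155 cells summed to 112, 91.8, 103 and 275 CPM, below the neutrophil-like level in every library, and 8 of 25, 6 of 12, 6 of 21 and 3 of 17 members with 20 UMIs were over 2-fold above it. These cells were deeper than neutrophil-like cells (a median of 22695 to 35570.5 against 2608 to 3536 UMIs), and the CPM levels were not adjusted for it. Comparing the levels of the 2 classes therefore cannot tell where the collagen RNA came from. Col17a1 was at 12.8, 18.9, 10.0 and 13.1 CPM, Col4a5 at 4.00, 18.4, 7.22 and 14.6 CPM, and Col25a1, a transmembrane collagen, at 1.69, 5.17, 7.67 and 5.74 CPM with 0 UMIs in neutrophil-like cells of any library. In Trp53-intact mice, 1 of 27 members was higher with ADT (Col4a5) and 1 lower (Col1a2), against 1.92% and 2.48% of 13524 genes. In Trp53-deleted mice 5 of 25 were higher (Col1a1, Col1a2, Col3a1, Col8a1 and Col18a1) and 0 lower, against 2.57% and 1.9% of 12725 genes. All 5 were below the neutrophil-like level of that library, such as Col1a1 at 60.6 against 526 CPM. The genotypes gave 0 of 29 apart without ADT, against 0.541% of 13671 genes higher and 1.15% lower, and 6 of 21 higher with ADT, against 1.99% of 12339 genes. Those 6 (Col1a1, Col1a2, Col3a1, Col5a1, Col5a2 and Col6a3) were at 6.73 to 60.6 CPM, again below the neutrophil-like level.

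**Figure D5:**
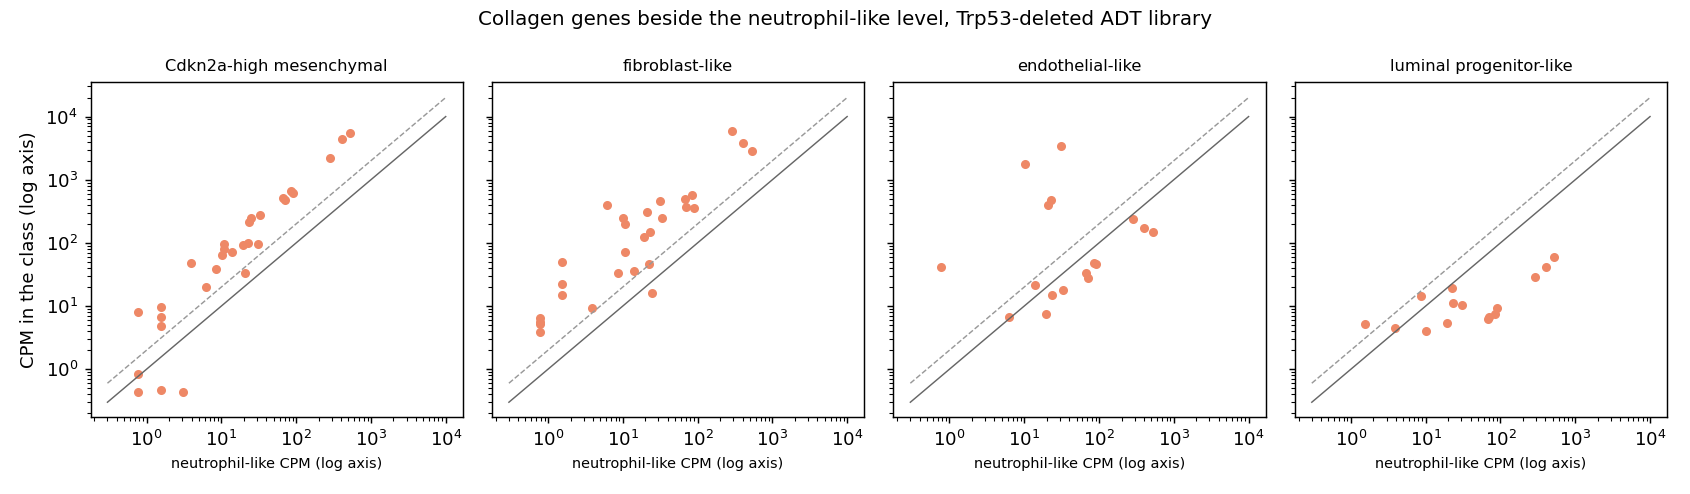
Each collagen gene with at least 20 UMIs in the class, in the Trp53-deleted ADT library, with its CPM in neutrophil-like cells on the x axis and in 4 classes on the y axis (log axes, the solid line at equal levels and the dashed line at 2-fold; genes at 0 in neutrophil-like cells are not drawn). Endothelial-like cells have 5 genes above the dashed line, and Col1a1, Col1a2 and Col3a1 lie below equality in endothelial-like and luminal progenitor-like cells.

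Other classes, most of them rarer stromal ones, held further members. Schwann-like cells of the Trp53-intact libraries without and with ADT (178 and 78 cells) held Col20a1 at 46.9 and 133 CPM and Col28a1, a collagen of peripheral nerve, at 65.1 and 42.3 CPM. Col5a3 was at 206 and 78.4 CPM and Col16a1 at 146 and 177 CPM there. Lymphatic endothelial-like cells of the Trp53-intact and Trp53-deleted ADT libraries (55 and 58 cells) held Col23a1 at 281 and 145 CPM. Smooth muscle and pericyte-like cells (113 and 52, Trp53-intact without and with ADT) held Col4a1 at 933 and 818 CPM and Col18a1 at 352 and 251 CPM. Mesothelial-like cells (201 and 66) held Col3a1 at 3836 and 438 CPM. Macrophage-like cells held Col14a1 at 49.6, 93.5, 43.0 and 52.3 CPM, against 9.34, 6.09, 8.87 and 6.21 CPM in neutrophil-like cells. Neutrophil-like cells themselves held Col15a1 at 17.1, 43.2, 31.7 and 21.0 CPM, highest in the library where fibroblast-like Col15a1 was lowest. Col11a2 had its highest mean level in neutrophil-like cells, at 6.56 CPM, and Col26a1 in seminal vesicle-like cells, at 7.53 CPM. Of the members with few UMIs, Col2a1 reached 6.26 CPM at most (mesothelial-like, 1 UMI), Col19a1 5.28 CPM (smooth muscle and pericyte-like, 2 UMIs) and Col9a2 3.14 CPM (Schwann-like, 2 UMIs). Col9a1 reached 1.56 CPM (mesothelial-like, 1 UMI) and Col22a1 1.28 CPM (lymphatic endothelial-like, 1 UMI). Of the 46 UMIs of Col22a1, 41 were in Cdkn2a-high cells, at 0.71 CPM.

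The partners that fold, cut, bind and break down collagen were read in fibroblast-like cells from 5 lists. In Trp53-intact mice none of 20 folding and modification genes was 2-fold apart with ADT (median log2 ratio -0.19). Over all 13107 genes 2.04% were lower and 1.39% higher in this contrast. Of 12 genes for propeptide cleavage and cross-linking 3 were lower, led by the procollagen protease Adamts2 (74.4 against 188 CPM). Of 13 fibril-organising genes 2 were lower, led by Aspn at 14.2 against 81.3 CPM, and 1 was higher, Fmod at 38.9 against 11.8 CPM. None of 8 measured receptors was 2-fold apart, and of 6 breakdown genes 1 was lower, the collagen-cutting protease Ctsk at 64.7 against 170 CPM. The collagen genes had the lowest median of these lists, -1.01.

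In Trp53-deleted mice 4 of 20 folding genes were higher with ADT, led by the prolyl hydroxylase subunit P4ha3 at 13.9 against 0.40 CPM. Over all 13296 genes 2.65% were higher and 3.25% lower in this contrast. Of 11 cleavage and cross-linking genes 2 were lower, led by Pcolce2 at 77.6 against 204 CPM. Of 12 fibril-organising genes 3 were higher, led by the proteoglycan Bgn at 3925 against 799 CPM, and 3 lower, led by Ogn at 233 against 680 CPM. The receptor Ddr2 was lower (146 against 350 CPM) among 9, and Ctsk higher (224 against 106 CPM) among 6 breakdown genes. Between the genotypes without ADT, 1 of 19 folding genes was lower in Trp53-deleted cells, the collagen chaperone Serpinh1 (588 against 1753 CPM). Of 13 fibril-organising genes 1 was higher, Fn1 (807 against 301 CPM). Of 11 cleavage and cross-linking genes 1 was higher and 1 lower, and none of 8 receptors or 6 breakdown genes was 2-fold apart. Over all 13264 genes 1.64% were higher and 1.66% lower in this contrast. With ADT 5 of 12 fibril-organising genes were higher in Trp53-deleted cells, led by Aspn at 90.3 against 14.2 CPM, and none of the 20 folding genes was 2-fold apart. Of 11 cleavage and cross-linking genes, 9 receptors and 6 breakdown genes, 1 each was higher in Trp53-deleted cells with ADT. Over all 13071 genes 2.11% were higher and 1.9% lower there. In Cdkn2a-high cells Serpinh1 was at 1776, Sparc at 6038, Bgn at 2553 and Lox at 226 CPM.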

How the data were processed

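The deposited values are raw UMI counts of 4 libraries in a single matrix, which the authors made with Cell Ranger 2.1.1 on mm10, per the submitters' processing notes. Per the file headers the matrix was written by software 3.1.0, and this difference was not resolved. Cells were dissociated with collagenase type II and TrypLE, per the labels. Each cell's library was taken from its barcode suffix. The rest of the genotype, shared by all groups, is not reported here.

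Barcodes under 500 UMIs or 200 genes, or with over 20% of UMIs from mitochondrial genes, were dropped. The 594, 475, 305 and 793 barcodes with the highest doublet scores (a share of 0.008 per 1000 barcodes) were left out, because the caller's own threshold marked 2, 2, 3 and 4. With scanpy 1.11.5 and igraph 0.11.9, 2000 variable genes without the collagens, 40 components, 20 neighbours and Leiden resolution 1 gave 31 clusters, which were named from marker lists. The shallow cluster with osteoclast genes was kept apart after its leading genes were seen. UMIs were summed per class and library with at least 50 cells, and given as CPM with exact Poisson intervals. Ratios have exact conditional binomial intervals (scipy 1.17.1). The log2 ratio of CPM + 5 was called past 2-fold where at least 20 UMIs were counted over both libraries. The call was tested on simulated data, where 3-fold changes were recovered for 80% to 86.5% of genes. These changes were planted only in genes with at least 100 UMIs, while the call was used from 20 UMIs. The simulated counts were Poisson draws, so they held no difference between animals or libraries beyond counting error. UMI counts were not divided by gene length.

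Members, lists and subsets were chosen with earlier results of these data known. Named in full were the 12 members with the highest CPM in fibroblast-like cells and those 2-fold apart, the 4 highest members of other classes, chain pairs, and the farthest partner gene of each list. Others were named by pattern after their values were seen. The median log2 ratio of all genes was shifted by 0.15 (fibroblast-like, genotype without ADT), 0.10 (luminal progenitor-like, same contrast), -0.14 (endothelial-like, ADT in Trp53-deleted) and 0.25 (endothelial-like, genotype without ADT). In the Lgr5/Wif1 subset it was shifted by -0.14 (ADT in Trp53-deleted) and 0.22 (genotype without ADT), and in the Sult1e1/C7 subset by 0.13.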

Additional observations from a re-analysis of the deposited data

Results flagged for a closer look

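Some collagen genes went opposite ways with ADT in the 2 genotypes, each past 2-fold on the log2 scale in both. In fibroblast-like cells Col1a1 had a log2 ratio of 1.01 in Trp53-deleted and -1.76 in Trp53-intact mice, and Col11a1 one of 1.23 and -1.27. In luminal progenitor-like cells Col1a2 had 1.92 and -1.05. In endothelial-like cells Col1a2 had 1.74 and -1.64, and Col3a1 had 2.60 and -1.40. With 1 library per group the difference between genotypes was not tested. In the Trp53-deleted ADT library the luminal progenitor-like and endothelial-like values lay below the neutrophil-like level of the same genes, and so did Col11a1 in fibroblast-like cells (16.3 against 24.8 CPM).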

How the results depend on the processing

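No paired analysis was possible because each group has 1 library, and for the same reason no replicate could be left out. Counts of members past 2-fold are given below where they moved by over 1.5 times, and the cause was not tested. In fibroblast-like cells with ADT in Trp53-intact mice the 1 higher member became 2 with a pseudocount of 1 CPM, and 0 with a pseudocount of 10 CPM, median-of-ratios scaling, doublets kept or the Lgr5/Wif1 subset alone. The 17 lower members stayed within 1.5 times under all alternatives. In Trp53-deleted mice the 4 higher became 8 with a pseudocount of 1 and 2 with the neutrophil-like level subtracted, and the 4 lower became 7 in the Lgr5/Wif1 subset. Between genotypes without ADT that subset gave 4 higher and 10 lower. Between genotypes with ADT it gave 3 higher and 2 lower, and the 1 lower member became 3 (pseudocount 1), 2 (neutrophil-like level subtracted) or 0 (pseudocount 10, mean over cells, doublets kept). The luminal progenitor-like counts were the least stable. With ADT in Trp53-intact mice 2 members apart became 8 with a pseudocount of 1, and 1 with a pseudocount of 10, the neutrophil-like level subtracted or doublets kept. In Trp53-deleted mice 5 became 11 (pseudocount 1), 3 (pseudocount 10), 8 (mean over cells) and 0 (neutrophil-like level subtracted). Between genotypes 0 became 4 (pseudocount 1) or 1 (mean over cells) without ADT. With ADT 6 became 10 (pseudocount 1), 3 (pseudocount 10 or at least 100 UMIs) and 2 (neutrophil-like level subtracted). In endothelial-like cells with ADT in Trp53-intact mice 4 became 7 (pseudocount 1), 2 (pseudocount 10 or collagens in the clustering), 1 (neutrophil-like level subtracted) and 0 (at least 100 UMIs). Between genotypes without ADT 2 became 0 (pseudocount 10, at least 100 UMIs, median-of-ratios scaling) or 1 (doublets kept). Single log2 ratios changed sign under 2 alternatives. The subtraction of the neutrophil-like level took no account of how deep the cells of a class were, so its changes of sign do not settle a direction. With the neutrophil-like level subtracted they were Col11a1 at -0.79 (fibroblast-like, ADT, Trp53-deleted), Col8a1 at -0.18 and Col18a1 at -0.87 (luminal progenitor-like, same contrast), Col5a1 at -0.58 and Col5a2 at -0.86 (endothelial-like, same contrast), and, in endothelial-like cells between genotypes with ADT, Col5a1 at -0.19, Col5a2 at -1.21, Col6a1 at -1.01 and Col6a3 at -1.01. In the Lgr5/Wif1 subset, an alternative chosen after seeing the data, they were Col1a1 at -0.14 (ADT, Trp53-deleted) and, between genotypes with ADT, Col5a2 at -0.062 and Col8a1 at -0.50.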
